A study of Homo sapiens with 4 samples.

Results

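Expression of 10 genes of the BCL2 family was examined in Hep3B cells after knockdown of UNC50, a membrane protein known for a part in vesicle trafficking. The genes were BCL2, BCL2L1, BCL2L2, MCL1, BAX, BAK1, BID, BIK, BCL2L11 and PMAIP1. Every array probe that carries one of these gene names was taken, whatever its signal, which gave 15 probes in 52 spots out of 42405 probes in 58717 spots other than controls. Of the 15 probes, 13 probes of 9 genes stood well above background on each of the 4 arrays. The mark "well above background" is the scanner software's own, and a probe was given it on an array when 50% or more of its spots had it.

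Proteins of the BCL2 family decide whether the outer mitochondrial membrane is opened during apoptosis. Survival members hold the effectors BAX and BAK1 in check, and members that share only the short BH3 segment with the rest of the family either block the survival members or activate the effectors directly. Once BAX or BAK1 forms pores, cytochrome c leaves the mitochondria and caspases are activated, a step by which liver cells also respond to death receptors.

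Hep3B is a human hepatocellular carcinoma cell line. Cells were transfected with a short hairpin RNA plasmid and purified with 1 μg/ml puromycin for 2 days, mock cells included. The mock cells received the plasmid shR-MOCK, and the knockdown cells received shR-467, shR-554 or shR-749, which target the UNC50 mRNA at positions 467, 554 and 749. Total RNA was labelled with Cy3 and hybridised to 1-colour Agilent arrays, 1 array for each plasmid. The 3 hairpins were taken as 3 replicates of UNC50 knockdown, so their spread includes effects of single hairpins, while the spread between mock cultures could not be measured. With 1 mock array against 3, an exact two-sided permutation test cannot give a p below 0.25.

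Where values are given in runs of 4, the order is mock, shR-467, shR-554, shR-749, and runs of 3 keep the order of the hairpins. The scanner signal of UNC50 was 5010, 1050, 853 and 947, and after scaling its mean log2 difference from mock was -2.45 ± 0.40 (SD, n = 3), lower with each hairpin. On an array 67.6% to 73.6% of spots were well above background, and all arrays lay on 1 slide read in 1 scan. All 10 hepatoma marker genes were well above background on every array, and their summed signal, as a multiple of each array's 75th percentile, was 438 for mock and 526 to 632 for the hairpins. Of their 12 probes, 5 were at least 1.5-fold higher on average and 4 with every hairpin. Of all probes well above background on every array, 2.31% and 0.579% were. The mean log2 differences of the 12 ran from 0.16 for SERPINA1 to 1.75 for FGB (fibrinogen), with an APOA1 (apolipoprotein) probe at 1.13. Of 10 marker genes of leukocytes, endothelium and stroma, 6 had a probe well above background on every array, and no stroma gene was among them. The summed signal of the 10 was 3.42 times the 75th percentile for mock and 2.89 to 3.79 times for the hairpins. Most of it was CD68, with a scanner signal for mock of 3309 out of 3826. PTPRC passed by a single probe, with a mock signal of 81.5, while its other probes did not pass. CD3E and VWF, with mock signals of 45.9 and 36.6, lay near background. The part of these marker shifts in the values of the family was not tested. In bulk RNA fewer cells of a type and less RNA per cell cannot be told apart.

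The probes are single-stranded 60-base DNA sequences, and the values of a gene depend on where in its transcript a probe lies. The last 30 bases are printed here for BID, BCL2 and BCL2L11, which have several probes, and for PMAIP1. Those of BAX, which also has several probes, are not printed. Positions follow the array's own annotation (hg19), and all letters are 5′ to 3′ in the sense of the transcript. The BID probes at chr22:18218182-18218241 and chr22:18218265-18218324, both on the minus strand, lie 23 bases apart. The BCL2 probes at chr18:60790723-60790782 and chr18:60985401-60985460, on the minus strand, lie 195 kb apart. The BCL2L11 probes lie on the plus strand at chr2:111878705-111878764, chr2:111886352-111886411 and chr2:111925892-111925951. The PMAIP1 probe lies on the plus strand at chr18:57570691-57570750. Capitals mark the hexamer AATAAA, the common form of the signal that precedes the cut at the end of a messenger RNA.
BID A_24_P187948: tattttaaagacaatgttaaacttataacc
BID A_33_P3227041: tatagctgcttccagtgtagacggagccct
BCL2 A_23_P352266: aaaaatacggtaaggatactttacatggtt
BCL2 A_33_P3355185: tgtgtgtggagagcgtcaaccgggagatgt
BCL2L11 A_33_P3398526: tgactctgactctcggactgagaaacgcaa
BCL2L11 A_33_P3251932: tatggtcattggtgattaAATAAAatgtat
BCL2L11 A_24_P122921: gggtaattgccactttacttgtgcaatact
PMAIP1 A_33_P3619171: aatatAATAAAagaacatggggattttgta

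The hexamer stood in the last 30 bases of 2 of the 15 family probes, 1 of BCL2L11 and that of PMAIP1, and in 5.42% of all 42405 probes. On the opposite strand it stood in 0 of the 15 probes and in 2.02% of all probes. The G and C content of the family probes ran from 35% to 55%, around a median of 43.3% over all probes. All 10 symbols are current in RefSeq, and the transcripts listed for all 15 probes belong to the same gene there.

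None of the 13 family probes marked well above background on every array passed the 1.5-fold threshold on average. Fold changes were computed on the log2 scale after each array was scaled to its own 75th percentile, which was 978 to 1390 in scanner signal, so an unscaled signal can be higher with a hairpin while the scaled value is lower. Of the 13 probes well above background on all arrays, 0 were at least 1.5-fold higher on average, where 2.31% of the 26058 such probes were, and 0 were at least 1.5-fold lower, where 2.84% were. With every hairpin, 0 of 13 were 1.5-fold higher and 0 were 1.5-fold lower, beside 0.579% and 0.484% of all. With shares this small over all probes, counts of 0 in 13 lie near the background. The median difference over the 13 probes was -0.08, against 0.00 over all 26058, and the median size of the difference was 0.11 against 0.15. The median SD between hairpins was 0.15 for the family and 0.22 for all probes. The 26058 probes were not matched to the family for signal, so these medians do not show a steadier family.

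**Figure D1:**
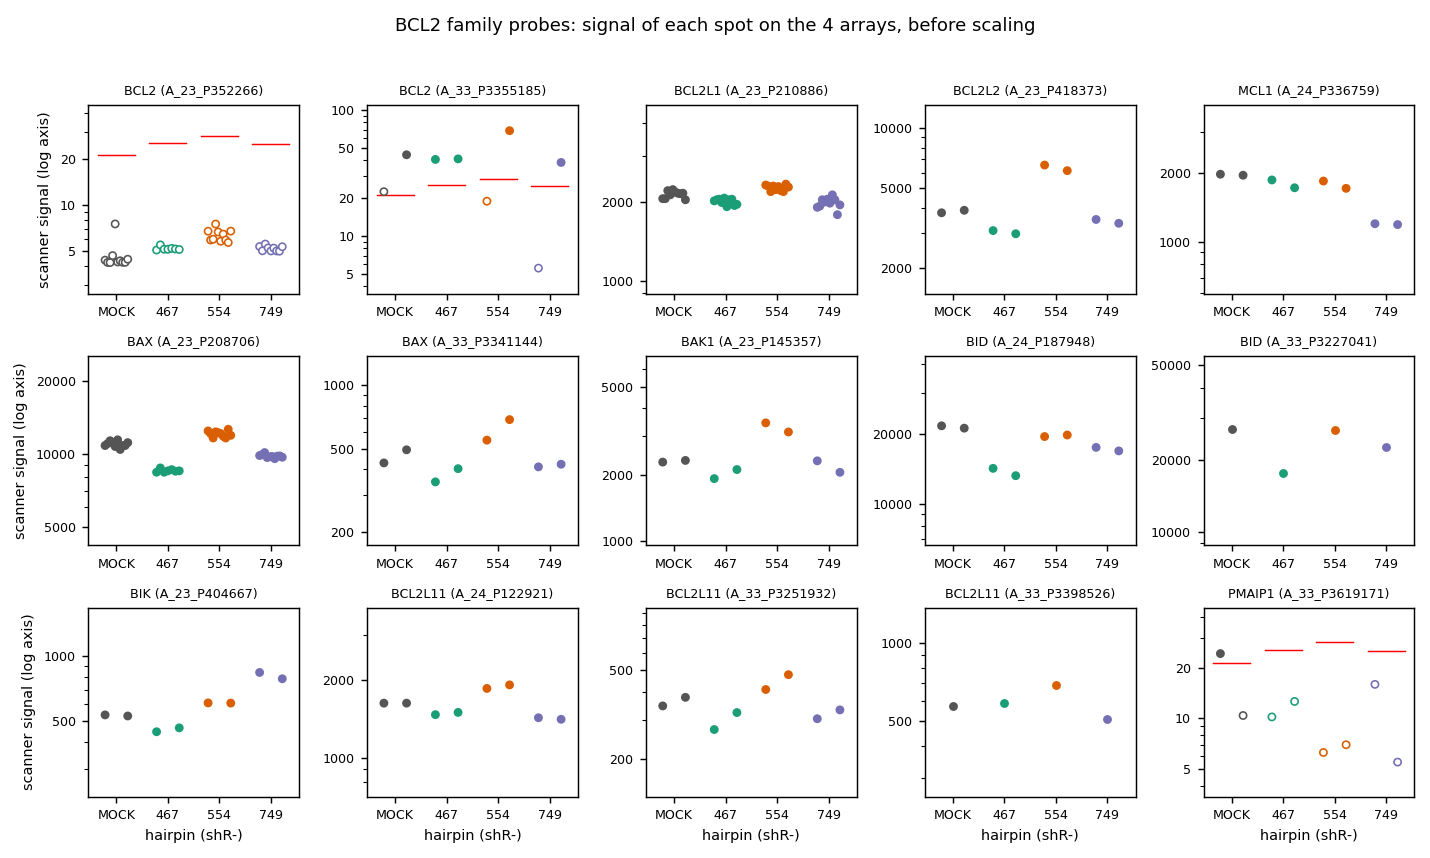
Scanner signal of every unmarked spot of the 15 BCL2 family probes (log axis, before scaling between arrays) on the mock array and the 3 knockdown arrays. Filled points were well above background and open points were not. Red lines show the lowest signal among spots well above background on that array, drawn where they fall within the panel. The BCL2 probe A_23_P352266 lies under the line on all arrays, and MCL1 and BIK stand apart with shR-749.

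Of the survival members, BCL2L1, BCL2L2 and MCL1 were clearly measured and BCL2 was not. BCL2L1, which gives BCL-XL, was read by 10 spots with mean signals of 2137, 2007, 2264 and 1980. Its scaled differences were 0.11, -0.23 and -0.12, with a mean of -0.08 ± 0.17 (SD, n = 3). BCL2L1 thus lay on both sides of mock, and the 95% interval of the limma fit was -0.61 to 0.45.

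MCL1, a survival protein with a short half-life, had signals of 1960, 1789, 1774 and 1195. Scaled to the mock array these were 105%, 72.9% and 60.4% for the 3 hairpins. MCL1 was near mock with shR-467 and below it with the others. The mean difference was -0.37 ± 0.40 (SD, n = 3), with a 95% interval of -1.13 to 0.39, so the difference was no larger than the spread between hairpins. The pair of MCL1 spots on the shR-749 array read 1190 and 1200, and on the mock array 1950 and 1970.

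BCL2L2, which gives the survival protein BCL-W, had signals of 3825, 3014, 6332 and 3414. Its differences were -0.15, 0.42 and -0.18, with a mean of 0.03 ± 0.33 (SD, n = 3). Only the shR-554 array was above mock, and its difference stayed under 1.5-fold, which is 0.58 on the log2 scale.

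BCL2 itself was at or near background. The probe A_23_P352266, with 10 spots, read between 4.58 and 6.34 on average, and 0% of its spots were well above background on any array, so no fold is given. The other probe, A_33_P3355185, had a pair of spots that read 22.5 and 44.2 for mock, 40.6 and 41 for shR-467, 18.9 and 68.7 for shR-554, and 5.56 and 38.4 for shR-749. On every array but that of shR-467 only 1 of the 2 spots was well above background. The scaled differences of 0.57, -0.12 and -1.12 had a mean of -0.22 ± 0.85 (SD, n = 3) and differ in sign. The mean signal with shR-749, 14.6, lay under the detection limit of that array, 25 (its dimmest spot marked well above background). The value of -1.12 is therefore not a measured fold.

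The effectors were measured well and lay close to mock. The BAX probe A_23_P208706 had 10 spots with mean signals of 10936, 8502, 12056 and 9761. Scaled, these were 89%, 88.8% and 88.5% of mock, and the mean difference was -0.17 with an SD between hairpins of 0.0047 (n = 3). That SD leaves out the error of the shared mock array, and the 95% interval, which pools the spread over probes, was -0.56 to 0.22. The single spots ran from 10400 to 11400 for mock, and from 11600 to 12600 for shR-554, the array with the highest 75th percentile.

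A BAX probe 390 bases away, A_33_P3341144, gave signals of 459, 373, 613 and 415 and differences of -0.10, 0.11 and -0.16. Its mean was -0.05 ± 0.14 (SD, n = 3), so the lower value with every hairpin was seen by 1 of the 2 BAX probes. The array lists A_33_P3341144 for 1 BAX transcript and A_23_P208706 for 4, so the probes may not read the same RNAs. BAK1, the other effector, had signals of 2300, 2013, 3271 and 2176 and differences of 0.00, 0.20 and -0.09. The mean for BAK1 was 0.04 ± 0.15 (SD, n = 3) with a 95% interval of -0.47 to 0.54.

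Among the BH3-only members, BID was the gene lower with every hairpin by both of its probes. BID, which is cut by caspase-8 and then carries the death receptor signal to the mitochondria, was bright on all arrays. The probe A_24_P187948 had signals of 21449, 13691, 19649 and 17197, or 73.1%, 73.8% and 79.5% of mock after scaling. The probe A_33_P3227041 had signals of 27100, 17700, 26600 and 22600, or 74.8%, 79.1% and 82.7% of mock.

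The mean BID differences were -0.41 ± 0.07 and -0.34 ± 0.07 (SD, n = 3). Both were larger than the spread between hairpins, which leaves out the error of the single mock array, and under the 1.5-fold line. Of all probes in the limma fit, 18.2% and 23.5% had a mean difference at least as large in either direction. The 95% intervals of the BID probes were -0.79 to -0.02 and -0.72 to 0.03. In limma the first probe had an unadjusted p of 0.0405 and an adjusted p of 1, and the second an unadjusted p of 0.0677. The full BID probes lie 23 bases apart and are listed for the same transcripts, so they are repeat readings of 1 RNA and not independent support.

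BIK, a BH3-only protein of the endoplasmic reticulum, had signals of 531, 455, 606 and 813. Scaled to mock it stood at 98.2% and 92% with shR-467 and shR-554 and at 152% with shR-749. The mean was 0.15 ± 0.39 (SD, n = 3), with a 95% interval of -0.64 to 0.94, and rests on that single array, whose spots read 786 and 841.

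BCL2L11, which gives BIM, the BH3-only protein that ERK signalling is known to keep low, was read by 3 probes spread over 47.1 kb. The array lists A_24_P122921 for 2 BCL2L11 transcripts and each of the other probes for 1, so the probes may not read the same RNAs. Signals were 1630, 1485, 1890 and 1420 for A_24_P122921, 362, 296, 443 and 317 for A_33_P3251932, and 573, 586, 688 and 509 for A_33_P3398526. The mean differences of these probes were -0.08 ± 0.14, -0.11 ± 0.09 and 0.00 ± 0.21 (SD, n = 3). All 3 probes were lowest against mock with shR-749, at -0.21, -0.20 and -0.18, which is well inside 1.5-fold.

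PMAIP1, which gives NOXA, a BH3-only partner of MCL1, was close to background. Its spots read 24.2 and 10.4 for mock, 10.2 and 12.6 for shR-467, 6.28 and 6.98 for shR-554, and 15.9 and 5.51 for shR-749. Only the spot of 24.2 was well above background. PMAIP1 therefore entered the test through the mock array alone, and since its mock value lay below the detection limit of the knockdown arrays, no fold is given.

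**Figure D2:**
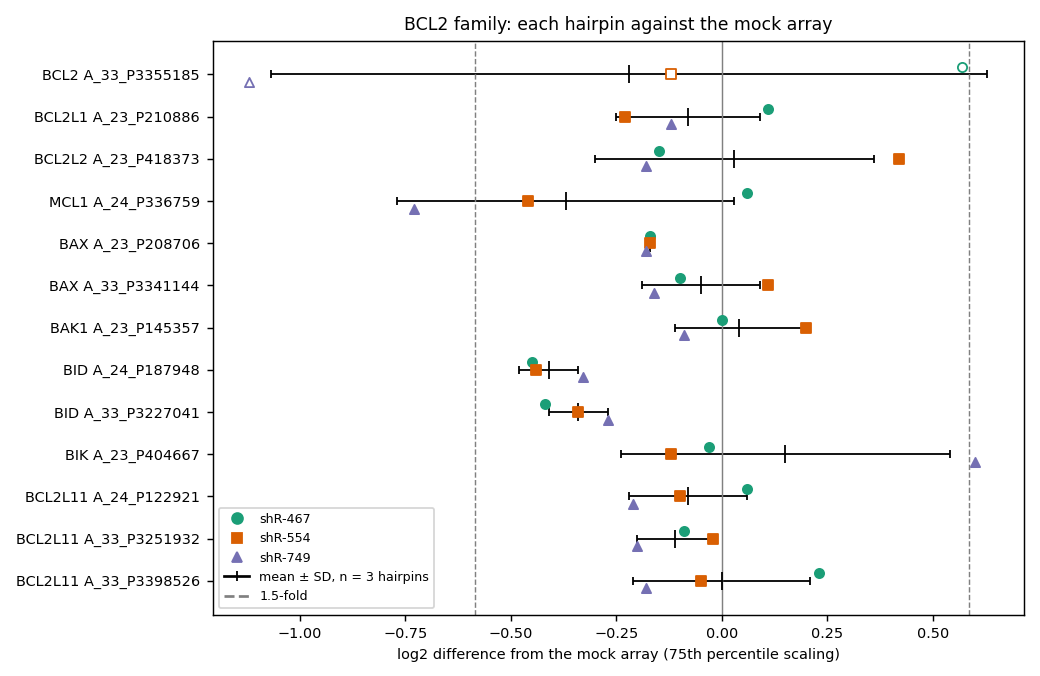
Log2 difference of each knockdown array from the mock array (x axis, after 75th percentile scaling) for the 13 family probes well above background on all 4 arrays, with the mean ± SD over the 3 hairpins (n = 3) as black bars. Dashed lines mark 1.5-fold, and open symbols mark BCL2, of which only some spots were above background. Both BID probes lie left of 0 with all hairpins at -0.27 to -0.45, while MCL1 and BIK spread from hairpin to hairpin.

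Counts of calls were read against all probes. A probe entered the fit if the mock array, or each of the 3 knockdown arrays, showed it well above background, which held for 14 family probes and for 30275 of all probes. Of the 14, 0 were 1.5-fold higher on average, where 2.25% of all were, and 1 was lower, where 7.35% were. That probe was PMAIP1, which passed the filter through its mock signal and supports nothing. With every hairpin 0 of the 14 were 1.5-fold higher and 0 were 1.5-fold lower, beside 0.552% and 1.23%.

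In single comparisons with the mock array, 0 of the 13 probes reached 1.5-fold with shR-467, where 10.04% of all did. With shR-554 0 did, where 12.4% did, and with shR-749 3 did, where 11.5% did. These were MCL1, BIK and BCL2, the last with a mean signal under the detection limit of that array. Below mock with every hairpin were 4 of 13, namely both BID probes, the 10-spot BAX probe and the BCL2L11 probe A_33_P3251932, where 18.6% of all were. Above mock with every hairpin were 0, where 20.1% were. The comparisons share the mock array, so an error of that array would move all 3 hairpins together.

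The limma fit called 0 of the 14 probes at an adjusted p under 0.05, and 0% of all 30275 probes, UNC50 included, which had an adjusted p of 0.703. It marked at an unadjusted p under 0.05 1 of the 14, a BID probe, and 450 of all probes, or 1.49%. The methods' t-test called 0 probes after adjustment and marked 813 at an unadjusted p under 0.05. These p-values measure the spread between hairpins, and they take the single mock array to be as variable as the hairpins.

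The size of change left within the error was read from the intervals. For the 12 probes of 8 genes left when BCL2 is set aside, each at least 11.6 times the detection limit on every array, mean differences ran from -0.41 to 0.15 and 9 of 12 lay within 0.2 of 0. Of their 36 single differences, 2 reached 1.5-fold, MCL1 and BIK with shR-749. The 95% intervals reached from -1.13 to 0.94 and, at the median, 0.56 to either side of the mean, and for 2 of the 12 the whole interval lay within 1.5-fold. For the other 10 the interval reached past 1.5-fold on at least 1 side, and the values do not show that the members stayed the same.

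**Figure D3:**
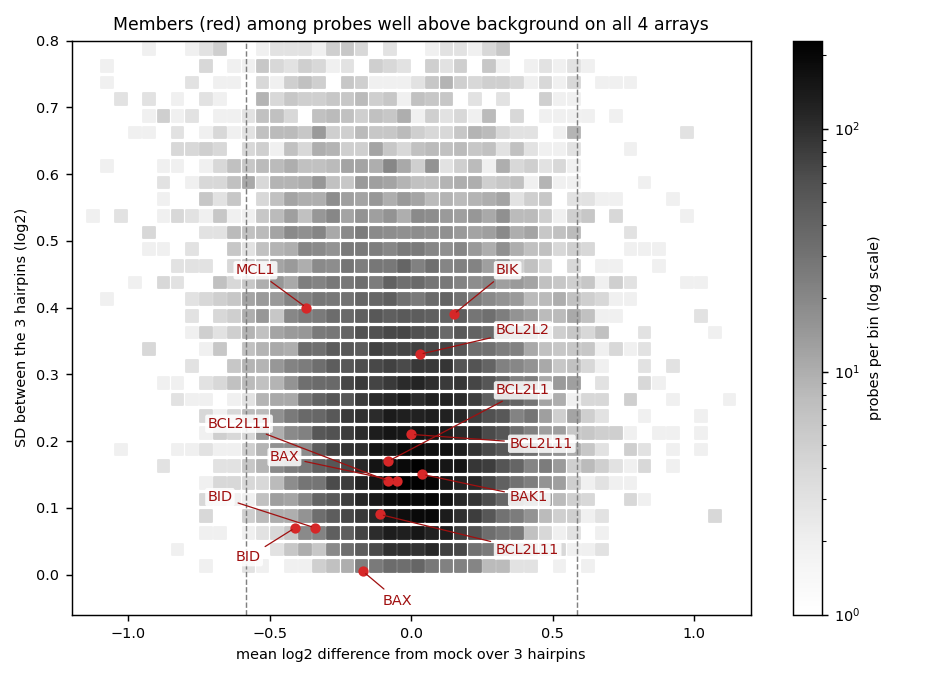
Mean log2 difference from mock (x axis) and SD between the 3 hairpins (y axis, log2) for the 26058 probes well above background on all 4 arrays, shown as grey bins whose shade gives the number of probes on a log scale. Red points are the 12 family probes without BCL2, dashed lines mark 1.5-fold, and the axes show 96.9% of the probes. All 12 points lie between the dashed lines, with BID furthest left at -0.41 and the 10-spot BAX probe lowest on the y axis.

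The rest of the apoptosis machinery was read from 6 further lists of 71 genes, of which 98 probes of 67 genes passed the background mark on each array. Probes were counted by gene name, although the array's annotation places those of BCL2L12, CASP10, CYCS, TOMM20, VDAC1 and XIAP on more than 1 chromosome each. BCL2A1 passed by a probe with a mock signal of 5860, while its other probe, at 10.6 for mock, was at background on every array. On average 0 of the 98 were 1.5-fold higher and 1 was lower, beside 2.31% and 2.84% of all probes. With every hairpin 0 were higher and 0 lower, beside 0.579% and 0.484%, so these counts lie near the background too. The 14 other BCL2 family genes, such as the BH3-only BBC3 and the pore-related BOK, had 17 such probes with a median difference of -0.09 and 0 changed on average. Caspases and the apoptosome had 21 probes with a median of 0.02, mitochondrial outer membrane partners 14 with a median of -0.01, and death receptors with their adaptors 10 with a median of -0.04. None of these 3 lists had a probe changed 1.5-fold on average.

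The 1 probe lower on average belonged to BIRC3, an inhibitor of apoptosis induced by NF-κB, named here after its values were seen. BIRC3 had signals of 6662, 4760, 4253 and 2944 and differences of -0.29, -0.96 and -1.19. Its mean was -0.81 ± 0.47 (SD, n = 3), and shR-467 did not reach 1.5-fold. The list of inhibitors of apoptosis held 9 probes with a median of -0.13, on both sides of mock. Mean differences were -0.49 and -0.19 for the CFLAR probes, -0.36 for BIRC5 (survivin) and -0.08 for BIRC2. They were -0.13 and 0.25 for the probes named XIAP, 0.11 for NAIP and 0.28 for BIRC6. The array's annotation places the XIAP probe of -0.13 on chromosome X, with a mock signal of 2685. It places that of 0.25 on chromosome 10, with a mock signal of 134, and whether this probe reads XIAP was not tested.

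Factors that act on transcription or stability of family members had 27 probes with a median of -0.06 and 0 changed on average.

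Larger differences in these lists were seen with single hairpins. At 1.5-fold or more from mock were 5 of the 98 probes for shR-467, and 7 each for shR-554 and for shR-749, against the shares of 10.04%, 12.4% and 11.5% given above. With shR-749, and chosen after their values were seen, the decoy receptor TNFRSF10D differed by 1.27 and the stress factor DDIT3 by 0.99. TNFRSF10D had signals of 3190, 2559, 4859 and 7748 and DDIT3 of 652, 489, 656 and 1310. With the other hairpins TNFRSF10D differed by -0.12 and 0.30, and DDIT3 by -0.22 and -0.30. HRK, a BH3-only gene best known from neurons and also chosen after its values were seen, differed by -0.43, -1.23 and 0.38. Its signals were 220, 143, 116 and 288. TNFRSF10C, chosen in the same way, differed by -1.14, -0.11 and 0.39.

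**Figure D4:**
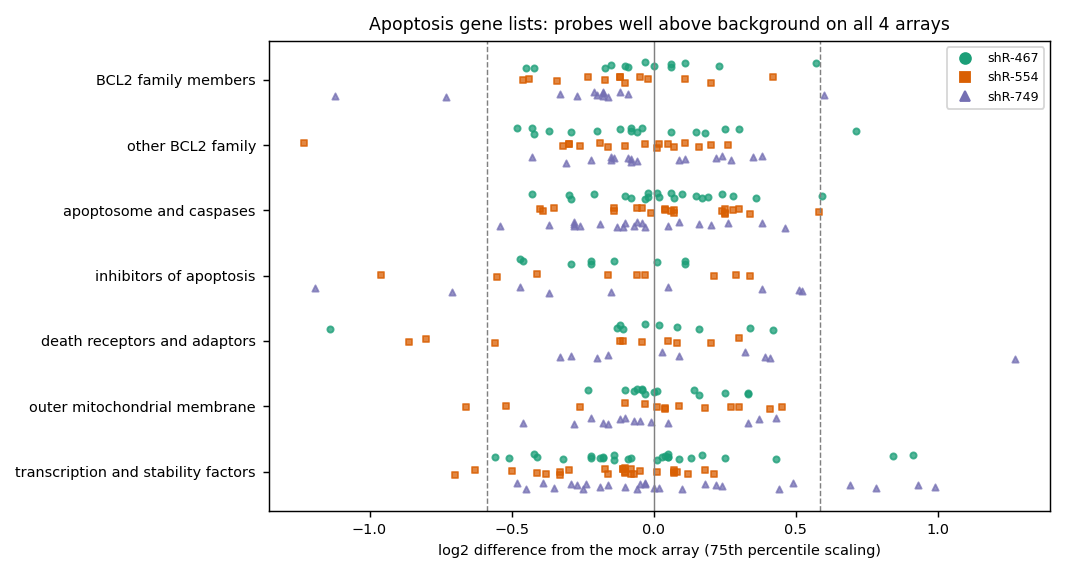
Log2 difference of each knockdown array from the mock array (x axis, after 75th percentile scaling) for the BCL2 family members and 6 lists of apoptosis-related genes (rows), probes well above background on all 4 arrays. Each point is 1 probe with 1 hairpin, and dashed lines mark 1.5-fold. Most points lie between the dashed lines in all rows, and the point furthest right is TNFRSF10D at 1.27 with shR-749.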

How the data were processed

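For each of the 4 arrays the authors deposited the spot intensity output of Agilent Feature Extraction 10.7.1.1, in which the background is already subtracted from the processed signal. A table of log2 values that the authors deposited beside it was used as an alternative, and how it was normalized is not given in the sources used here. Processed signals were put on the log2 scale and each array's 75th percentile was subtracted. Marked outlier spots (254 to 466 per array) were dropped and a probe's spots averaged. A probe was kept if the mock array, or each of the 3 knockdown arrays, showed it well above background. Differences were tested with limma 3.58.1 (R 4.3.3; lmFit and eBayes, with a trend of variance on the mean, and Benjamini-Hochberg adjustment over all 30275 kept probes) with 2 residual and 4.88 prior degrees of freedom. The number of arrays and the signal over background limit the precision. The 1.5-fold line follows the methods of the study. The members, the other lists and the markers were chosen with earlier results of these data known. Of the other lists, the rule named genes changed 1.5-fold by every hairpin, and 1 further gene that is not reported here. The limma fit was checked on simulated scaled values with known changes, and the earlier steps were not simulated. The alternatives were other scalings, normexp with an offset of 50, the deposited log2 values, raised low signals, other filters, marked spots kept, other probe choices, a 2-fold threshold, other tests and each hairpin left out. The RefSeq table (GRCh38.p14) was used for names only.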

Additional observations from a re-analysis of the deposited data

How the results depend on the processing

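Of 209 values recomputed under alternatives, 195 moved by less than the limits set for them, among them 161 of 167 differences of member probes. For a single probe the limit was the SD between hairpins. Leaving out a hairpin cannot move a mean of 3 by that much, and a changed filter leaves the value of a probe as it was. These counts were thus partly fixed in advance and do not show that the values are stable. The sign turned in 7 of the 167, in 5 probes. PMAIP1 turned from lower to higher, 0.17, when low signals were set to the detection limit, where knockdown values stand at the limit by construction. BCL2 A_33_P3355185 turned from -0.22 to 0.23 there, to 0.07 with normexp and to 0.22 without shR-749. Without shR-554, BAK1 turned from 0.04 to -0.04 and BCL2L2 from 0.03 to -0.16, and without shR-749, BIK turned from 0.15 to -0.07. The number of members changed 1.5-fold on average was 1 in the values reported and 0 with normexp and quantile normalization, with low signals set to that limit, with the filter asking for all 4 arrays, and with a 2-fold threshold. Leaving out a hairpin gave 0 to 3, with 3 (BCL2, MCL1 and PMAIP1) without shR-467 and 0 without shR-554. The number changed with every hairpin was 0, and 0 to 1 when a hairpin was left out, the 1 being PMAIP1 without shR-467. The number of probes called by limma was 0 to 1 when a hairpin was left out, the 1 being REG3A, no member, without shR-554. Each of the 12 bright member probes kept the sign of its mean under the other scalings and background corrections, except the BCL2L11 probe A_33_P3398526, which ran from -0.03 to 0.04. The BID probes ran from -0.41 to -0.38 and from -0.34 to -0.31. No paired analysis was possible because there was only 1 mock array. A block for slide or scan could not be fitted, since 1 slide and 1 scan held every array. Low signal limits BCL2 and PMAIP1, and 1 mock array limits every member.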
